A study of Mus musculus with 4 samples.

Results

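The potassium, calcium and sodium channel genes were the 133 genes on the array whose symbols begin with Kcn, Cacn or Scn in the patterns used for pore-forming and auxiliary channel subunits, of 31829 gene names in all. They comprised 93 potassium, 26 calcium and 14 sodium channel genes, and the antisense transcript Kcnq1ot1 was left out. Members were chosen by symbol alone and not by any measured value. Of these genes, 132 had a usable value on every array, and 47 were covered by more than 1 probe.

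The RNA came from mouse embryonic fibroblasts (MEFs), primary cells grown from embryos, of C57BL/6J mice. The 4 arrays are labelled G2KO (genotype CycG2-/-), WT of the G2KO comparison (CycG2+/+), DKO (CycG1-/-CycG2-/-, lacking both cyclin G1 and cyclin G2) and WT of the DKO comparison (CycG1+/+CycG2+/+). The knockouts were carried by the mice themselves, no agent was added, and every culture was in logarithmic growth. Each genotype was measured on 1 array from 1 culture, so that no difference below has a replicate check and no p-value is given. The question of the DKO and G2KO comparisons was which genes differ in expression when these cyclins are missing, and the arrays labelled WT were set against each other as well.

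Potassium channels set the resting potential of a cell and end its electrical signals. Voltage-gated calcium channels let in calcium that triggers contraction, secretion and gene regulation, and voltage-gated sodium channels carry the rapid upstroke of the action potential in nerve and muscle. Fibroblasts do not fire action potentials, but they are known to hold a resting potential and to use potassium channels in volume control, migration and growth. Each channel is built of pore-forming subunits, and auxiliary subunits alter its opening, its assembly or its place in the cell.

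Throughout, the level of a gene is its background-corrected signal as a multiple of the 75th percentile of all signals on the same array, and it describes 1 probe. Levels of different genes are therefore not set against each other. A probe called dim was not well above background by the scanner software. Where 1 array of a comparison was dim, its level was replaced by the floor of that array, the lowest level any probe well above background had there (between 0.0066 and 0.0102), unless the probe itself lay above this floor. Such ratios carry the words "at least". A difference of at least 4-fold was counted.

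The cyclin genes were examined first as a check of the labels. Ccng1, which encodes cyclin G1, had levels of 1.98 on the array labelled G2KO, 9.45 on its WT, 0.00685 on DKO (dim) and 1.66 on WT of DKO, so that it was at least 228-fold lower in DKO than in its WT. On the array labelled G2KO, in which only cyclin G2 should be missing, Ccng1 was 4.78-fold lower than on the array labelled WT. Ccng2, which encodes cyclin G2, had levels of 0.091, 0.104, 0.0619 and 0.0806 in the same order and did not separate the knockouts from the WT arrays, and whether its probe lies in the deleted part was not tested. Directions given here for the G2KO comparison are taken from the labels alone, and its arrays are called by their labels throughout. For Kcnab1, Cacna1g and Pdgfra, the directions that these labels give are opposite to those listed for G2KO MEFs by the study. The other genes of that list are not compared here. With the labels of the G2KO arrays turned, every sign in the G2KO comparison would turn. The comparison between the arrays labelled WT would then set a knockout against a WT.

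The arrays also differed in markers of cell type. Of 12 fibroblast genes, all 12 were well above background on every array except the array labelled WT of G2KO, on which 10 were, with Pdgfra and Lum dim. Their summed levels were 432, 299, 429 and 587 in the order G2KO, its WT, DKO and WT of DKO. All 8 mesothelial markers were at least 4-fold higher in DKO than in its WT, with a summed level of 147 on DKO against 0.581 to 1.57 on the other arrays. The 9 smooth muscle genes summed to 49.7 on DKO against 226 to 369 elsewhere. In RNA of a whole culture, fewer cells of a type and less RNA per cell cannot be told apart.

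Fewer channel genes were well above background than genes in general. On single arrays, between 69 and 80 of the 132 channel genes (52.3% to 60.6%) were well above background, compared with 64.7% to 72.2% of all genes. All 4 arrays detected 57 channel genes (43.2%, against 61.2% of all genes), and no array detected 41 of them (31.1%, against 23.0% of all genes). The remaining 34 were divided into 16 genes seen on 1 array, 8 on 2 and 10 on 3. These counts read the probe used. With any probe of a gene counted, 58 channel genes (43.9%) were seen on all 4 arrays, against 61.3% of all genes, and 15 on 1 array. Of the 16 seen on 1 array, 12 were seen only on DKO. Over all genes seen on a single array, that share was 60.03%.

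**Figure D1:**
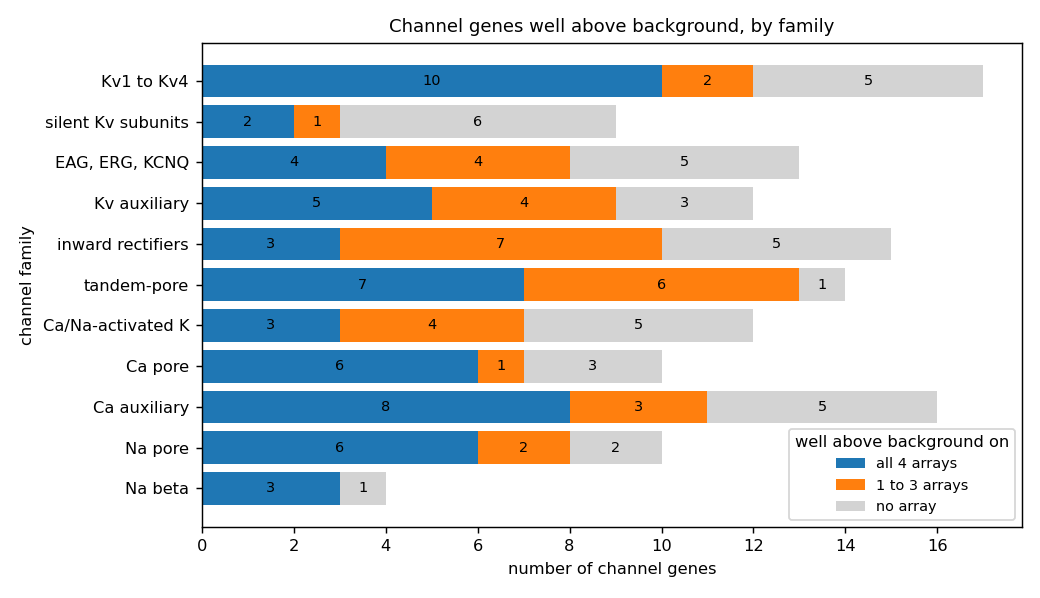
Number of channel genes in each family that were well above background on all 4 arrays, on 1 to 3 arrays or on no array. Voltage-gated Kv1 to Kv4 genes were detected on all 4 arrays in 10 of 17 cases and tandem-pore genes in 7 of 14, whereas 6 of 9 silent Kv subunits were detected on none.

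The families differed in how often they were detected. The bars by family show that the genes of the classical voltage-gated potassium pores were seen on every array in 10 of 17 cases, and those of the tandem-pore leak channels in 7 of 14, with only Kcnk1 seen on none. Sodium channel pores were seen on every array in 6 of 10 cases. Of 15 inward rectifiers, only Kcnj4, Kcnj13 and Kcnj15 were seen on all arrays by the probe used. Kcnj14 was dim only on DKO by that probe, and its second probe was well above background there (0.00939).

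The 12 genes seen only on DKO were Cacna1d, Cacna2d4, Cacng1, Cacng8, Kcng4, Kcnh7, Kcnip2, Kcnj5, Kcnj9, Kcnj12, Kcnk18 and Scn10a. Their levels on DKO lay between 0.00923 (Kcng4) and 0.023 (Cacng8), close to the floors, so that only low limits could be set, the highest being at least 1.79-fold (Kcnj12), and Kcng4 gave no ratio. Without a filter or floor, Kcnh7, Kcnip2, Kcnj5, Kcnj9 and Scn10a would be past 4-fold. DKO was the array with the highest share of all genes well above background, and the part of this in the 12 genes was not tested. By the probe used, Kcnip4 and Kcnj11 were seen only on the array labelled G2KO, and Kcnab2 and Kcnc2 only on WT of DKO. A second probe of Kcnj11 was well above background on DKO (0.0171).

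Compared with its WT, the DKO array differed at least 4-fold in 14 of the 85 channel genes that could be compared (16.5%), and among all genes the share was 8.07%. Of the channel genes, 3 were higher (3.53%, against 4.04% of all genes) and 11 were lower (12.9%, against 4.03%). The median log2 ratio of the channel genes was 0.17, compared with 0.03 over all genes, and the median size of the log2 ratio was 0.55 compared with 0.43. The higher genes were Kcnab1, Kcnj4 and Kcnn2. The lower genes were Kcnmb4, Kcnip1, Cacna1g, Kcnk10, Kcnk2, Cacnb2, Cacng7, Kcnj2, Kcng1, Kcnf1 and Kcnab2. Of the 14, 6 are lower limits because an array was dim, and 8 were left when both arrays had to be well above background. With another background correction, normexp, 7 were left.

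In the G2KO comparison as labelled, 11 of 77 channel genes differed at least 4-fold (14.3%), and of all genes 5.73% did. Higher on the array labelled G2KO were 7 channel genes (9.09%, against 3.71% of all genes), namely Kcnk6, Cacna1g, Kcnmb4, Kcng1, Kcnj15, Kcnn4 and Scn3a. Lower were 4 (5.19%, against 2.02%), namely Kcnab1, Kcnn2, Kcnd3 and Kcnk10. When the array labelled G2KO was set against WT of DKO instead, none of the 11 was past 4-fold in the same direction, and 4 of 73 channel genes were past it (2.3% of all genes were), all of them lower, among them Cacna1g, Kcnab2 and Scn3a. With normexp, 6 of the 11 were left.

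The arrays labelled WT differed from each other to a like extent. Between WT of DKO and WT of G2KO, 13 of 76 channel genes were at least 4-fold apart (17.1%), and of all genes 7.39% were. On WT of DKO 10 were higher (13.2%, against 4.63% of all genes), and Kcnab1, Kcnn2 and Kcnd3 were lower (3.95%, against 2.76%). With normexp, 5 of the 13 were left. If the labels hold, this is the only measure of the spread between cultures here. The share of channel genes past each size of difference lay above that of all genes over most of the range in every comparison, and these comparisons share arrays.

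**Figure D2:**
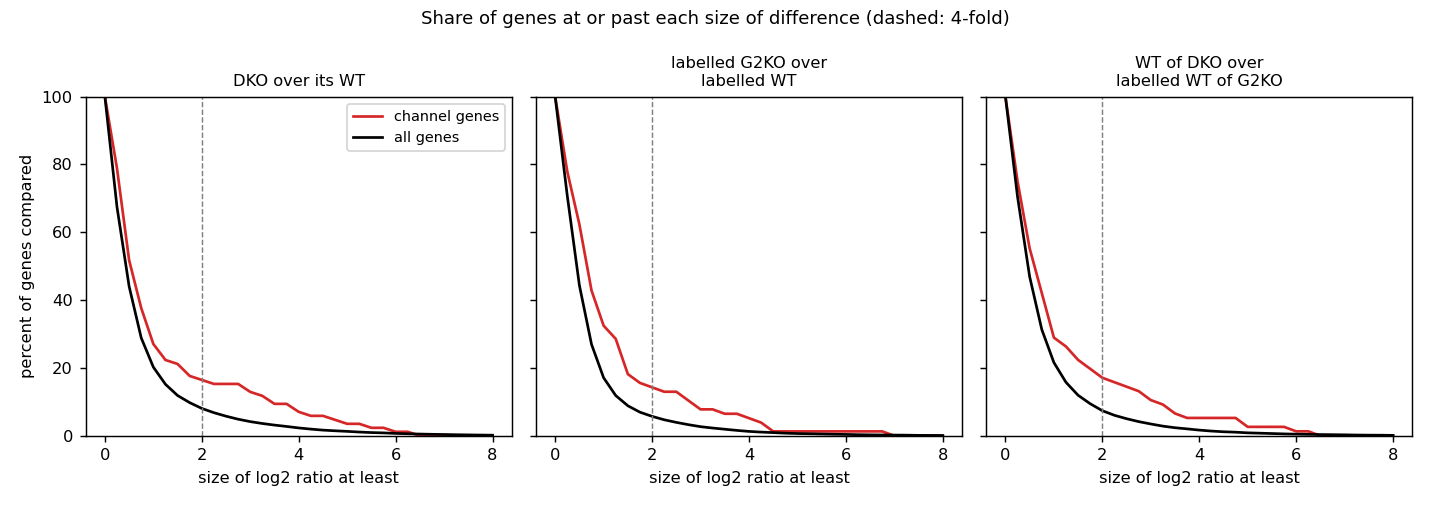
Percent of channel genes (red) and of all genes (black) whose log2 ratio was at least the size on the horizontal axis, in the 3 comparisons. At 4-fold, the dashed line, the channel genes lay at 16.5%, 14.3% and 17.1% and all genes at 8.07%, 5.73% and 7.39%.

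Among potassium channels, none of 12 compared pore-forming genes of the Kv1 to Kv4 families was past 4-fold in DKO against its WT. Their median log2 ratio was 0.21. Kcnc2, dim on DKO, was at least 2.33-fold lower there, and without a filter or floor it would be past 4-fold. Kcnd3, whose product carries a transient outward current in heart and brain, had levels of 0.0259 on the array labelled G2KO, 0.254 on the array labelled WT, 0.0313 on DKO and 0.0283 on WT of DKO. By the probe used, it was high only on the array labelled WT of G2KO, 9.77-fold above the array labelled G2KO and 8.97-fold above WT of DKO. A second probe of Kcnd3 was dim on every array (0.00494, 0.00577, 0.00916 and 0.00327). Kcna3, a channel of lymphocytes that has also been recorded in proliferating cells of other types, was between 0.013 and 0.0192 on all arrays.

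Silent voltage-gated subunits, which form no channel alone but alter those of other families, were detected for 3 of the 9 genes with a usable value, and both that could be compared in DKO were lower. Kcns3, of the same kind, was left out for its non-uniform spot on DKO, which at 1.34 was above its dim signals elsewhere. Kcng1 had levels of 0.1 on the array labelled G2KO, 0.014 on its WT, 0.00927 on DKO and 0.0885 on WT of DKO. The array labelled G2KO and WT of DKO were thus high and the other arrays low, with DKO 9.55-fold below its WT. A second probe of Kcng1 was dim on every array (0.00501, 0.00761, 0.0075 and 0.00308) and did not show this. Kcnf1 had levels of 0.105, 0.139, 0.0204 and 0.167 in that order and was low only on DKO, 8.19-fold below its WT. Its second probe was lower by a smaller amount, with a log2 ratio of -1.28.

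Of the EAG, ERG and KCNQ families, which act in repolarization and in the control of excitability, none of 7 compared genes was past 4-fold in DKO, and their log2 ratios lay between 0.00 and 0.48. Some of these are lower limits, dim on WT of DKO: at least 0.48 for Kcnh2, at least 0.36 for Kcnh8 and at least 0.27 for Kcnh7. Without a filter or floor, Kcnh7 would be past 4-fold. Kcnh1, known for its expression in tumor cells, was dim on every array.

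Auxiliary subunits of voltage-gated potassium channels held the gene with the highest positive ratio in DKO. Kcnab1 encodes a cytoplasmic beta subunit that speeds inactivation of the pore. Its levels were 0.0893 on the array labelled G2KO, 9.65 on the array labelled WT, 6.46 on DKO and 0.154 on WT of DKO. It was thus high on DKO and on the array labelled WT of G2KO and low on the other arrays, at 42.1-fold above WT in the DKO comparison, 108-fold below WT in the G2KO comparison, and 62.9-fold apart between the WT arrays. Its single probe lies at chr3:65181718-65181777 on the plus strand of mm9. The first 30 of the 60 bases of each probe printed here are given to identify what was hybridised, without capitals.
Kcnab1: ggggtttttgttgttgttttgttttctgta

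Kcnab2, the related beta subunit gene, was well above background only on WT of DKO (0.0525), at least 7.19-fold above DKO. Kcnip1 encodes a calcium-binding partner of Kv4 channels. Its levels were 0.212, 0.332, 0.00771 (dim) and 0.443 on the array labelled G2KO, its WT, DKO and WT of DKO. Only DKO was low, at least 57.4-fold below its WT. The probe of Kcnip1 lies at chr11:33530511-33530570 on the minus strand.
Kcnip1: tgttccaaaatgtcatgtaactgaggacac

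Inward rectifiers, which hold the membrane near the potassium equilibrium potential, gave 1 higher and 1 lower gene of 9 compared in DKO. Kcnj4 had levels of 0.0453, 0.124, 0.294 and 0.0384 in the order above, with DKO 7.67-fold above its WT and the array labelled WT of G2KO between them. Kcnj2, the main inward rectifier gene of heart and skeletal muscle, had levels of 0.0204, 0.00324 (dim), 0.00616 (dim) and 0.0778. It was dim on DKO and on the array labelled WT of G2KO, and DKO was at least 10.65-fold below its WT. Kcnj15 had levels of 0.113, 0.0161, 0.282 and 0.0786 and was low only on the array labelled WT of G2KO, 7-fold below the array labelled G2KO. A second probe of Kcnj15 was dim on every array except DKO (0.00956). Kcnj8, a pore of ATP-sensitive potassium channels in vascular cells, was dim on every array.

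Of the tandem-pore genes, which give the leak currents that set the resting potential, Kcnk2 and Kcnk10 were lower in DKO among 12 compared. Both encode closely related channels opened by stretch and fatty acids. Kcnk2 had levels of 0.139 on the array labelled G2KO, 0.105 on its WT, 0.00628 on DKO (dim) and 0.135 on WT of DKO, so that the other arrays lay close together and DKO was at least 18.5-fold below its WT. Its probe lies at chr1:191032758-191032817 on the minus strand.
Kcnk2: tttttaaaggcagaagaagacatgagcaca

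Kcnk10 had levels of 0.1, 0.57, 0.00181 (dim) and 0.17 in the same order. DKO was at least 23.2-fold below its WT, and the array labelled G2KO was 5.68-fold below the array labelled WT. As labelled, 6 channel genes were past 4-fold in both knockout comparisons, Kcnk10 in the same direction and 5 in opposite directions. The shares of all genes that were past it in both, in either way, are not given here. With the labels of the G2KO arrays turned, the 5 would run the same way and Kcnk10 would not. Kcnk6 had levels of 0.248, 0.0112, 0.148 and 0.0816 and was low only on the array labelled WT of G2KO, 22.1-fold below the array labelled G2KO. Kcnk5, a channel active at alkaline pH, was dim only on that array (levels of 0.0162, 0.0042, 0.00982 and 0.0136) and at least 2.26-fold lower there than on the array labelled G2KO. Kcnk1 was dim on all arrays.

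Calcium-activated potassium channels open when calcium rises in the cell. Kcnmb4, an auxiliary beta subunit of the large-conductance channel that is best known from neurons, had the most negative ratio of any channel gene in DKO. Its levels were 0.784 on the array labelled G2KO, 0.044 on the array labelled WT, 0.0158 on DKO and 1.37 on WT of DKO. The array labelled G2KO and WT of DKO were high and the other arrays low, with ratios of 86.3-fold lower in DKO than in its WT, 17.8-fold higher on the array labelled G2KO than on the array labelled WT, and 31-fold between the WT arrays. A second probe showed the same order of high and low arrays (0.115, 0.0231, 0.0181 and 0.186), with a smaller log2 ratio of -3.37 in DKO. The probe used lies at chr10:115854977-115855036 and the second at chr10:115910498-115910557, both on the minus strand.
Kcnmb4, probe used: ccctcaaagaagtcggttttctttggaaag
Kcnmb4, second probe: ttacgagtacacggaagccgaagacaagag

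The pore gene Kcnma1, with which this subunit assembles, was near the lowest detectable signal, with levels of 0.0049 (dim), 0.0171, 0.00829 and 0.00659 (dim), and gave no ratio in DKO. The beta subunit genes Kcnmb1, Kcnmb2 and Kcnmb3 were dim on every array. Kcnn2, a small-conductance channel gene, had levels of 0.00184 (dim), 0.0975, 0.0429 and 0.00271 (dim). It was seen on DKO and on the array labelled WT of G2KO alone, at least 4.19-fold above WT in the DKO comparison and at least 14.8-fold below WT in the G2KO comparison. Against the array labelled WT of G2KO, DKO was lower, with a log2 ratio of -1.18. Kcnn4, the intermediate-conductance channel of proliferating fibroblasts and lymphocytes, had levels of 0.148, 0.0235, 0.0769 and 0.101, the lowest being that of the array labelled WT of G2KO, and DKO and its WT were 1.32-fold apart.

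Among calcium channel pores, 1 of 7 compared genes was past 4-fold in DKO. Cacna1g encodes a T-type channel, which opens at small depolarizations. Its levels were 0.561 on the array labelled G2KO, 0.0261 on the array labelled WT, 0.0796 on DKO and 2.34 on WT of DKO. It was high on the array labelled G2KO and on WT of DKO, 29.4-fold lower in DKO than in its WT, 21.5-fold higher on the array labelled G2KO than on the array labelled WT, and 89.7-fold apart between the WT arrays. Set against the array labelled WT of G2KO, DKO was higher, with a log2 ratio of 1.61. A second probe gave a log2 ratio of -4.45 in DKO. The probes lie at chr11:94270459-94270518 and chr11:94269863-94269922 on the minus strand.
Cacna1g, probe used: aagaaagatgcgctgagtctctctggtttg
Cacna1g, second probe: catcttcaacggaaagcgagaaccattttg

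Cacna1c, the pore of the L-type channel of heart and smooth muscle, had levels of 0.0423, 0.0305, 0.0405 and 0.0486 and differed by at most 1.6-fold in the 3 comparisons. Cacna1a, a pore of presynaptic terminals, had levels of 0.565, 1.2, 0.386 and 0.845 and was 2.19-fold lower in DKO than in its WT.

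Calcium channel auxiliary subunits gave 2 lower genes and none higher of 11 compared in DKO. Cacnb2, a cytoplasmic beta subunit that brings the pore to the membrane, had levels of 0.0817, 0.126, 0.00994 and 0.157, with DKO alone low and 15.8-fold below its WT. Cacng7, a gamma subunit known also as a partner of glutamate receptors, had levels of 1.65, 0.623, 0.151 and 2.32, with DKO 15.3-fold below its WT. In both genes a second probe gave a smaller difference, as described below. Cacna2d1, which encodes the target of gabapentin, had levels of 1.54, 1.3, 1.47 and 3.43, with WT of DKO the highest and DKO 2.33-fold below it. Cacnb3 had levels of 0.872, 0.973, 1.72 and 1.44 and was within 1.48-fold in the 3 comparisons.

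No sodium channel gene was past 4-fold in DKO, with 8 pore genes and 3 beta subunit genes compared. Scn3a, a pore of the embryonic nervous system, had levels of 0.0321, 0.00484 (dim), 0.258 and 0.208. It was dim on the array labelled WT of G2KO, at least 4.48-fold below the array labelled G2KO and at least 29-fold below WT of DKO, while DKO and its WT were 1.24-fold apart. Against WT of DKO, the array labelled G2KO was lower, with a log2 ratio of -2.69.

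Scn2a1, a pore gene of the brain, had levels of 0.126, 0.142, 0.0938 and 0.16, with DKO 1.7-fold below its WT. Scn9a, a pore of sensory neurons, was dim on every array.

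The levels were next sorted by which arrays stood at least 4-fold apart, over the 91 channel genes well above background on at least 1 array. On DKO, 6 genes were at least 4-fold lower than on each of the other 3 arrays (6.59%, against 1.2% of all genes): Cacnb2, Cacng7, Kcnf1, Kcnip1, Kcnk2 and Kcnk10. The second probes of Cacnb2, Cacng7 and Kcnf1 did not show this. That of Cacnb2 had levels of 0.0183, 0.0255, 0.0122 and 0.0411, and that of Kcnf1 0.0494, 0.0849, 0.0253 and 0.0612, with DKO lowest by less than 4-fold. That of Cacng7 was not lowest on DKO (0.03, 0.0342, 0.0407 and 0.0487). None of the 91 was at least 4-fold higher on DKO than on each other array, and of all genes 2.48% were. Kcns3, a silent voltage-gated subunit gene, was not among the 91 because its spot on DKO was marked as non-uniform. That spot had a level of 1.34, and the gene was dim on the other arrays, at 0.00214, 0.00235 and 0.00311, so the count of 0 depends on leaving it out. With normexp, the low genes Cacnb2, Kcnf1 and Kcnk2 fell short of 4-fold against WT of DKO, at log2 ratios of -1.90, -1.73 and -1.85.

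In 5 genes the arrays were split in pairs by the probe used. Cacna1g, Kcng1 and Kcnmb4 were at least 4-fold higher on both the array labelled G2KO and WT of DKO than on both other arrays (3.3%, against 0.927% of all genes). Kcnab1 and Kcnn2 showed the reverse (2.2%, against 0.384%). The second probe of Kcng1 was dim on every array and did not show the split. That these 5 genes were past 4-fold in opposite directions in the knockout comparisons as labelled follows from the split itself. Against the other WT array, DKO was within 4-fold for all 5, with log2 ratios of 1.61 for Cacna1g, -0.59 for Kcng1, -1.48 for Kcnmb4, -0.58 for Kcnab1 and -1.18 for Kcnn2.

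By the probe used, the array labelled WT of G2KO stood apart in 4 genes. On it Kcnj15, Kcnk6 and Scn3a were at least 4-fold lower than on each other array (3.3%, against 1.29% of all genes), and Kcnd3 was higher (1.1%, against 0.808%). The second probes of Kcnj15 and Kcnd3 did not show this. WT of DKO was at least 4-fold higher than each other array in Cacna1g and Kcnab2 (2.2%, against 0.719%). Over the 4 arrays, the range was at least 4-fold in 21 of 91 channel genes (23.1%, against 15.5% of all genes) and under 2-fold in 36 (39.6%, against 58.2%).

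**Figure D3:**
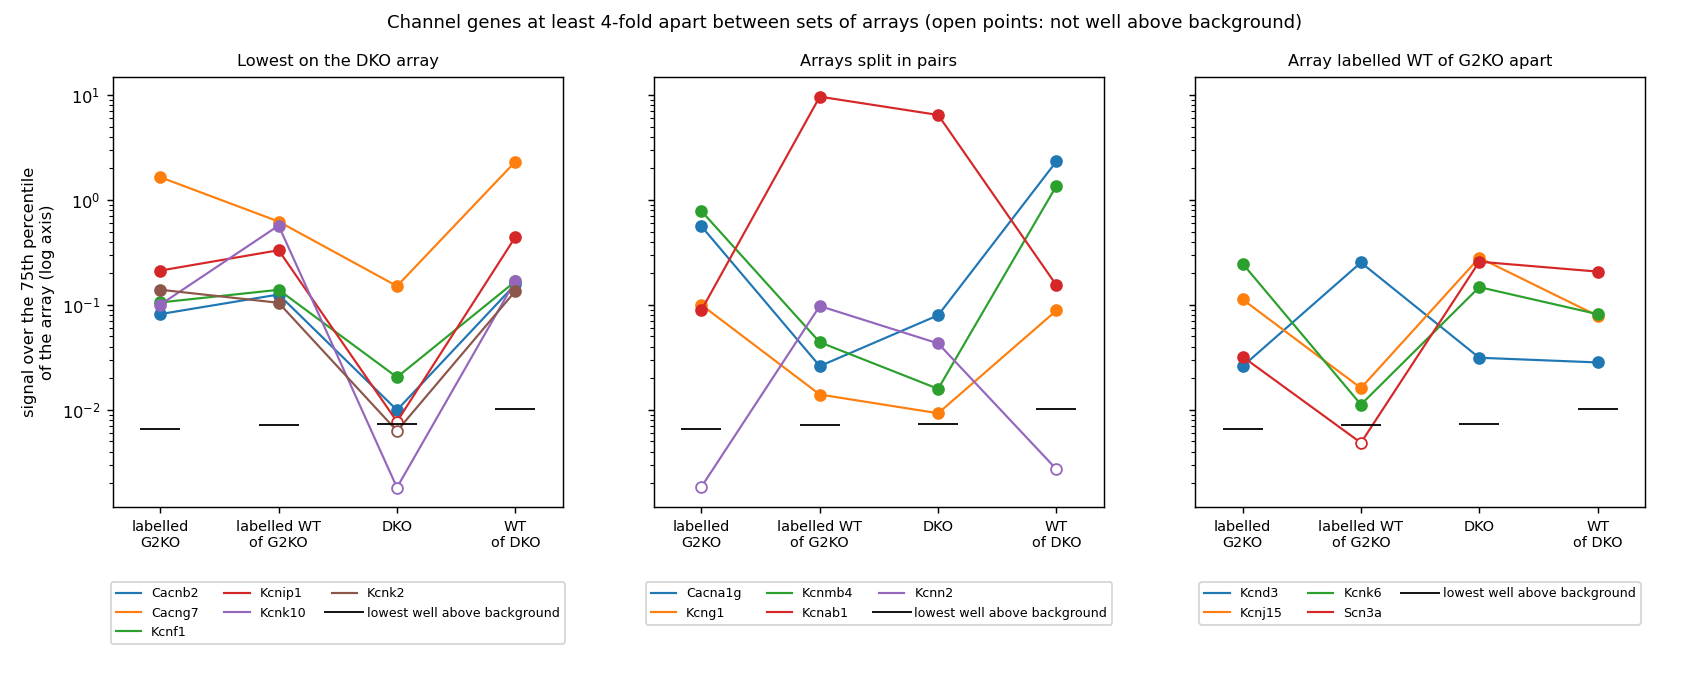
Level of each gene on the 4 arrays (signal over the 75th percentile of the array, log axis), with lines joining the points of a gene. Open points were dim and black bars mark the lowest signal well above background. The left panel shows the genes low only on DKO by the probe used, such as Kcnk2 (0.00628 against 0.105 to 0.139). In the middle panel the arrays are split in pairs, and in the right panel the array labelled WT of G2KO stands apart, both by the probe used. Heights of different genes are not comparable.

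Markers of cell type moved with these same arrays. The genes low only on DKO stood on the array with the mesothelial sum of 147 and the smooth muscle sum of 49.7. The smooth muscle genes Tagln, Acta2 and Synpo2 were 11.3-fold, 4.51-fold and at least 17.5-fold lower in DKO than in its WT, and Cnn1, Smtn and Actg2 were within 4-fold. Myh11 was at least 2.64-fold higher and Lmod1 at least 2.93-fold lower. Of the 12 fibroblast genes, Dcn was at least 4-fold higher in DKO than in its WT and 4 were lower, namely Pdgfra, Pdgfrb, Postn and Thy1. In the G2KO comparison as labelled, 5 were higher and none lower. High on the array labelled G2KO and on WT of DKO, like Kcnmb4, were (chosen after their values were seen) Thy1, at levels of 53.1, 0.461, 3.42 and 61.5, and Pdgfra, at 1.75, 0.00223 (dim), 0.0296 and 5.22. Dcn did not follow this course (0.757, 0.0722, 49.0 and 2.95), and Col1a1, Col1a2, Fn1 and Vim differed by log2 ratios of -0.25 to -0.03 in DKO.

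The list of neuronal markers had summed levels of 18.6, 10.0, 12.9 and 19.6, and its member Snap25 had levels of 15.5, 8.91, 12.2 and 18.1. Between 5 and 9 of its 11 genes were well above background on an array, and Nefm was dim on all 4. Stmn2, chosen after its values were seen, was well above background only on the array labelled G2KO (0.184) and on WT of DKO (0.199). Kcnmb4, Cacna1g and Kcng1 were high on these arrays, and so was Tubb3 (1.62, 0.188, 0.167 and 0.749). Elavl4 (0.0728, 0.134, 0.12 and 0.0678) and Ina (0.149, 0.157, 0.125 and 0.149) did not follow this course. Nefl was well above background only on DKO. The glial sum was between 0.433 and 1.02, the striated muscle sum between 0.363 and 2.18, the endothelial sum between 3.09 and 4.44, and the macrophage sum between 0.6 and 0.823. Most of the endothelial sum came from Kdr (3.0 to 4.36) and most of the macrophage sum from Csf1r (0.542 to 0.7). The part of any of these cell types in the channel results was not tested.

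Channel genes with several probes did not always give the same ratio. Probes of 6 genes were over 4-fold apart in at least 1 comparison. Only probes that gave a ratio were counted, so a second probe dim on both arrays did not enter. For the T-type channel gene Cacna1h, the probe used had levels of 0.057, 0.0934, 0.0713 and 0.0669, whereas the second probe had 0.00687 (dim), 0.00406 (dim), 0.0214 and 0.409. The log2 ratios of DKO to its WT were thus 0.09 and -4.26, and Cacna1h was within 4-fold by 1 probe and past it by the other. The probe used lies at chr17:25569818-25569877 and the second at chr17:25511235-25511294, both given on the minus strand.
Cacna1h, probe used: cttcttctgcctcgggcaaaccacgcggcc
Cacna1h, second probe: caaagctaaggggaggggaggggcaaagca

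For Cacng7 the probe used had a log2 ratio of -3.94 in DKO and the second probe -0.26, with levels of the second probe between 0.03 and 0.0487. The probes lie at chr7:3367751-3367810 and chr7:3366442-3366501 on the plus strand. The call of Cacng7 thus rests on 1 of its probes.
Cacng7, probe used: ggggggcctggctctgttatttaccgtgta
Cacng7, second probe: gacatctctagcgacgtctccattcagatg

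The probes of Cacnb2 gave log2 ratios of -3.98 and -1.75 in DKO, the same direction in unequal size. For Cacna1i, the remaining T-type gene, the array labelled G2KO was lower than the array labelled WT by the probe used (log2 ratio -1.32) and higher by the second (1.70). For Kcnd1, a gene of the same family as Kcnd3, the probe used gave -0.13 and the second at least 2.30. With Kcnmb4, these genes make up the 6. Which transcripts each probe reads was not tested.

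**Figure D4:**
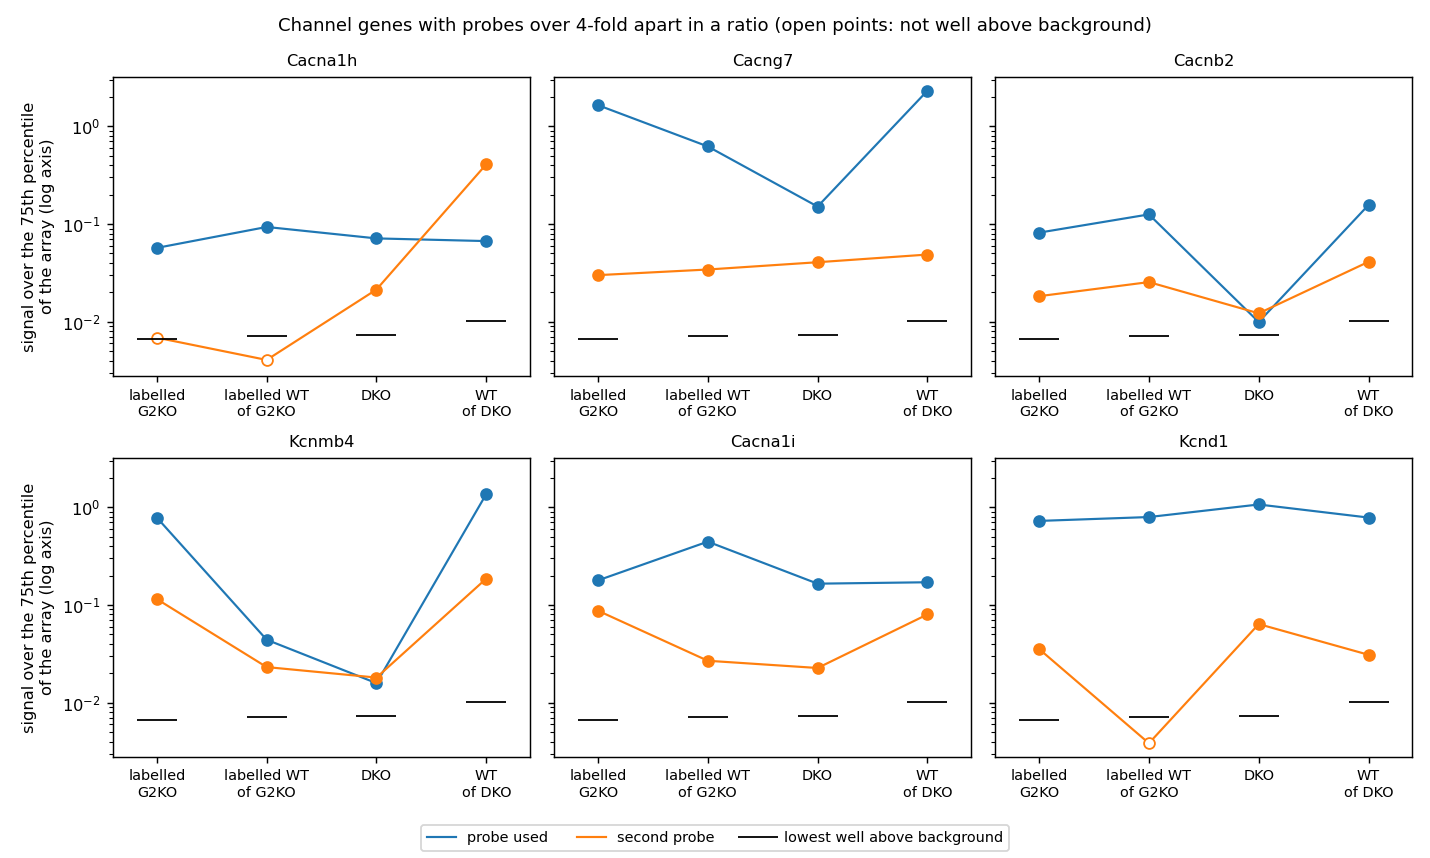
Levels on the 4 arrays (log axis) of the probe used (blue) and the second probe (orange) for the 6 channel genes whose probes were over 4-fold apart in a ratio. Open points were dim. The probes of Kcnmb4 and Cacnb2 followed the same course, whereas those of Cacna1h, with log2 ratios of 0.09 and -4.26 in DKO, did not.

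Promoter sequence was read for genes of the patterns above that have a single start site in the reference table (RefSeq, GRCm38.p6), which was so for 5 of 16 genes. The 250 bases before the start are shown for Kcnmb4 (chr10:116473524-116473773, minus strand), the gene with the most negative ratio in DKO, and for Cacng7 (chr7:3332575-3332824, plus strand) and Kcnf1 (chr12:17176889-17177138, minus strand), which were low only on DKO by the probe used. They are written in the direction of the gene. Capitals mark matches on either strand to the GC box, spelled GGGCGG, or to the box named for its letters CCAAT. The TATA box as TATAAA, the E-box as CACGTG, and the stretch TTCAGCACC, which opens the element bound by the repressor REST, were searched in the same way. None of the latter had a match in these windows. No matches of different motifs overlapped.
Kcnmb4: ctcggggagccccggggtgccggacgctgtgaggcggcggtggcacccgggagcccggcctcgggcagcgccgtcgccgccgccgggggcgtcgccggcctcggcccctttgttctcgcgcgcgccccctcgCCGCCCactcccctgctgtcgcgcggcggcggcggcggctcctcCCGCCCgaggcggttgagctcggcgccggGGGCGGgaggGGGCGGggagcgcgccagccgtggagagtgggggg
Cacng7: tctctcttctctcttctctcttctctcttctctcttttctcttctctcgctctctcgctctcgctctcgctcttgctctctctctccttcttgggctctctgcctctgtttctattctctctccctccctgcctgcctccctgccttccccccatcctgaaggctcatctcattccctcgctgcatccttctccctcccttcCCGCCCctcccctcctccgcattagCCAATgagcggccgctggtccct
Kcnf1: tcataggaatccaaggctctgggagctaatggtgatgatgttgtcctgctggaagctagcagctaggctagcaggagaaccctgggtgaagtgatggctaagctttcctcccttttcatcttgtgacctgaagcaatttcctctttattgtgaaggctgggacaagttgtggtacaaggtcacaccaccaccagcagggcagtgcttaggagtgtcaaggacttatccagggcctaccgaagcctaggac

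The window of Kcnmb4 held 83.6% G and C, 43 CG pairs and 4 matches to the GC box, that of Cacng7 58.0%, 9 CG pairs, 1 GC box and 1 CCAAT box, and that of Kcnf1 51.2%, 1 CG pair and no match. The windows of Kcnd3 and Kcnj15 had no match either. Over all 32851 promoters of the table, the medians were 52.4% and 6 CG pairs. A GC box was in 32.7% of them, the CCAAT letters in 33.85%, the TATA box in 12.4%, the E-box in 6.02% and the REST stretch in 0.3%. The low genes of DKO for which a promoter was read thus differed in base composition.

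Genes of related transport were counted in the same way for DKO against its WT, where 4.04% of all genes were higher and 4.03% lower. Of 19 TRP and polycystin channels compared, Mcoln2 was 15.9-fold higher and Trpv2 8.56-fold lower. Among 21 genes of calcium stores and pumps, the release channel genes Ryr1 and Ryr3 were at least 7.76-fold higher and at least 8.2-fold lower. Of 25 chloride and volume channels, 5 were higher, namely Clic5 (22.03-fold), Ano1 (8.37-fold), Clcn3 (4.66-fold), Ano3 (at least 4.47-fold) and Ano4 (at least 15.6-fold), and Ano9 was at least 6.18-fold lower.

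None of 12 sodium pump genes was past 4-fold. Of 15 other cation channels, the epithelial sodium channel gene Scnn1a was 9.9-fold higher, and Accn2, an acid-sensing channel gene, and Fam38b, a stretch-activated channel gene, were 8.56-fold and 13.3-fold lower. Among 15 gap junction genes, 2 were higher, and Gjb2 (at least 14.1-fold) and Panx3 (at least 4.07-fold) were lower. The median log2 ratios of these 6 lists lay between -0.32 and 0.23, compared with 0.03 over all genes. On the array labelled G2KO, Accn2 and Fam38b were 11.8-fold and 11.5-fold higher than on the array labelled WT, opposite to DKO, as were Trpv2 (4.77-fold higher) and Ryr1 (4.25-fold lower). Of the 23 channel genes listed as those known or studied in fibroblasts, 18 could be compared in DKO. None was higher (against 4.04% of all genes) and 4 were lower (against 4.03%), Cacna1g, Kcnab2, Kcnj2 and Kcnk2, with a median log2 ratio of -0.09. Those of Kcnab2, Kcnj2 and Kcnk2 are lower limits, and these genes fell short of 4-fold with normexp.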

How the data were processed

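Total RNA of MEFs was labelled with Cy3 and read on 4 Agilent mouse expression arrays of 1 color, 1 per label. For G2KO MEFs the study's supplement describes dye-swapped experiments, unlike these arrays of 1 color. The deposited intensity of each spot was made by the authors with Agilent Feature Extraction (10.7.3.1 in the file headers, 10.5.1.1 in the submitters' processing notes), which corrects background within an array and does not scale between arrays. The deposited table of processed values held the same intensities. Control spots and between 107 and 140 spots per array marked as outliers were left out, which left Kcns3 without a value. Signals (75th percentiles of 1586.21 to 2233.61) were divided by the 75th percentile of the array, spots of a probe were averaged on the log2 scale, and the probe with the highest mean of a gene was used. The median SD of repeated spots was 0.0578 to 0.0911 on the log2 scale, which is technical. No spot was saturated. The number of arrays limits the precision.

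A gene entered a comparison if either array had it well above background. Genes named were, in each comparison, the 10 largest measured differences past 4-fold and all limits past it, 23 channels of a fibroblast list, genes whose probes disagree, Ccng1 and Ccng2; others were named after their values were seen. Members and lists were chosen with earlier results of these data known. Ratios were tested on simulated data. Alternatives were normexp with an offset of 50 (limma 3.58.1, R 4.3.3), quantile or median scaling, no scaling, other filters, thresholds of 2-fold and 10-fold, other controls, the median over probes, and probes counted. Python 3.11.15, numpy 2.4.6 and pandas 2.3.3 were used. Positions of probes were copied from the files (mm9). Some genes that the naming rule covers are not reported here by name, and they stay in the counts.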

Additional observations from a re-analysis of the deposited data

Results flagged for a closer look

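In 5 channel genes the difference ran in opposite directions in the knockout comparisons, each past 4-fold as labelled. This difference between comparisons was not tested, since each array stands alone. The 5 genes are those whose arrays were split in pairs above, so this is not a separate result. That split held for 3.3% and, in reverse, 2.2% of channel genes, against 0.927% and 0.384% of all genes. The log2 ratios of DKO to its WT and of the array labelled G2KO to the array labelled WT were -4.88 and 4.43 for Cacna1g, and -6.43 and 4.15 for Kcnmb4. They were -3.26 and 2.84 for Kcng1. Kcnab1 had 5.40 and -6.76. Kcnn2, which was dim on the array labelled G2KO and on WT of DKO, had limits of 2.07 and -3.89. An exchange of both labels in the G2KO comparison would turn the sign of its ratios.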

How the results depend on the processing

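Counts of channel genes past 4-fold, in the order DKO, array labelled G2KO and WT arrays (14, 11 and 13), were 7, 6 and 5 with normexp, 23, 25 and 22 at 2-fold and 9, 5 and 6 at 10-fold. The 2-fold counts were 27.1%, 32.5% and 28.9% of the channel genes compared, against 20.3%, 17.1% and 21.6% of all genes. Shares of all genes are not given here for 10-fold, normexp or the other filters and scalings. With both arrays well above background they were 8, 9 and 8. Quantile scaling gave 13, 12 and 12 and no scaling 13, 13 and 14. Normexp left 3 higher and 3 lower genes for the array labelled G2KO and 3 and 2 between WT arrays. The array labelled G2KO gave 4 against WT of DKO and 3 against the mean of both WT arrays. In the same order, 83 of 92, 69 of 75 and 76 of 86 log2 ratios of called genes stayed past 4-fold. These are over the alternatives that kept the arrays compared, and 0 changed sign there. Such values reuse the same arrays and are not independent. Scaling moved the median log2 ratio of all genes by far less than 2, so a change of sign was hardly possible with it. Calls lost with quantile scaling were Kcnn2 in DKO and Kcnn4 between WT arrays.

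With the WT array of the other comparison, log2 ratios of DKO changed sign for Cacna1g (1.61), Kcnab1 (-0.58) and Kcnn2 (-1.18). Those of the array labelled G2KO changed sign for Cacna1g (-2.06), Kcnmb4 (-0.80) and Scn3a (-2.69), and against the mean of both WT arrays Scn3a was at -0.27. DKO kept 6 of its 14 calls, all lower, against the other WT array. Cacna1h became a call in DKO with the median over probes, at -2.08. The causes were not tested. The median log2 ratio of all genes for the array labelled G2KO was -0.17, and 0.33 without scaling. Between WT arrays it was -0.08, and -0.26 with median scaling. No paired analysis was possible because each group has 1 array and the labels give no replicate numbers. Signals near background limit what dim genes can show: 41 of 132 channel genes gave no level on any array, and a limit gives no order among dim arrays.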
